A study of Mus musculus with 6 samples.

Results

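The cytosolic ribosomal proteins are the proteins of the large and small subunits of the ribosome that works in the cytoplasm. Their rows were taken from the deposited gene table by symbol: Rpl or Rps followed by a number with an optional letter, the P-stalk symbols (Rplp) and Rpsa. The same symbols with a -ps suffix, the usual mark of a pseudogene, were taken as well. The rule found 141 of 25899 gene symbols, of which 51 were large subunit rows, 32 small subunit rows and 58 pseudogene rows. Pseudogene rows are defined by the suffix alone. The GENCODE M21 annotation types 4 of them as protein coding: Rpl10-ps3, Rpl36a-ps1, Rpl9-ps6 and Rps12-ps3. The 83 large and small subunit rows are called coding rows below. Paralogs such as Rpl3l and Rps27l count among them.

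The libraries came from oocytes of aged females (AF) collected at nuclear envelope breakdown (NEBD), the step at which a prophase-arrested oocyte resumes meiosis. The labels give CD1 mice of 58 weeks, primed with 5 IU of PMSG and used 46 h later. The study's methods name the strain as ICR and give the age in months, so the labels' values are used here. Each sample was 200 oocytes cultured for 180 min after release from the inhibitor IBMX and treated for 10 min with cycloheximide at 0.1 mg/ml, which holds ribosomes on mRNA. The lysate was spun through a sucrose gradient, and its 10 fractions were pooled into a non-polysomal part (NP, free RNA and monosomes) and a polysomal part (P). There are 3 NP and 3 P libraries, all from aged females, and libraries of young females were not analysed here. Each library is bulk RNA of pooled oocytes, so an mRNA held in a fraction by fewer of the oocytes and one held there at a lower level per oocyte cannot be told apart.

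Ribosomal protein mRNAs are a classic case of control at translation. In most mammalian cells they begin with a C followed by a run of pyrimidines, the 5′ terminal oligopyrimidine (TOP) motif, through which mTOR signalling moves them between polysomes and the free pool as a group. Fully grown oocytes no longer transcribe, so the mRNAs measured at NEBD were stored during growth. Ribosomal protein genes are also among the richest sources of processed pseudogenes in mammalian genomes: intronless copies of the mRNA, many of them nearly identical to the parent gene, so a short read from the parent can align equally well to a copy.

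How close the copies are is shown by 4 pairs, chosen to span from 1 mismatch to many. Each pair gives 80 bases of the parent's coding sequence and the aligned pseudogene bases, both 5′ to 3′ on the transcript strand from GENCODE M21 on GRCm38, with the bases that differ in capitals.
Rpl23a: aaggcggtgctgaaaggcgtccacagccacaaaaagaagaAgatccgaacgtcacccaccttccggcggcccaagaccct
Rpl23a-ps3: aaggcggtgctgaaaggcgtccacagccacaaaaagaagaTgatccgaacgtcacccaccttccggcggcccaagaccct
Rps13: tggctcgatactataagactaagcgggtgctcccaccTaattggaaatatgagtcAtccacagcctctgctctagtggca
Rps13-ps1: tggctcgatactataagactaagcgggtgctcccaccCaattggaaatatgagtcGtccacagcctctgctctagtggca
Rpl36: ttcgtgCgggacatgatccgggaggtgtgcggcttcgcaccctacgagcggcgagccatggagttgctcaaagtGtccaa
Rpl36-ps3: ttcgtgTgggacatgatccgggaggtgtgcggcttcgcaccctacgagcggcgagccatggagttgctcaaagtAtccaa
Rps15a: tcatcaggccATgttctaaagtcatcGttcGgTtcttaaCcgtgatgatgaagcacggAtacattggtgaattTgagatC
Rps15a-ps1: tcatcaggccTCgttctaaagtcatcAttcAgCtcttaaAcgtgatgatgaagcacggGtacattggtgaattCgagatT
Rpl23a-ps3 (chr14:34170730-34170809, plus strand) differed from Rpl23a at 1 aligned position, A41T counted from 1 at the left of the stretch, with the parent's base first. Rps13-ps1 (chr8:87048093-87048172, plus strand) differed at 2 positions over the whole alignment, T38C and A56G. Rpl36-ps3 (chr12:12912136-12912215, plus strand) differed at 4, with C7T and G75A in the stretch shown. Rps15a-ps1 (chr10:106192615-106192694, minus strand) differed at 21, of which 9 lie in the stretch. Each of these pseudogenes is annotated as 1 exon. Their parents have 5 (Rpl23a), 6 (Rps13), 4 (Rpl36) and 5 (Rps15a) exons.

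Depth set what could be seen. The deposited values are fragments per kilobase of exon, scaled to the mapped reads of the library (FPKM), so levels of genes are compared per exon length. From the steps in the low values, with 1 step taken as 1 read, the depth behind the table came out at 1237799, 18096676 and 12131030 reads in NP 1 to 3 and at 163514, 1139943 and 1549317 in P 1 to 3. At the depth of P 1, 31 of the 83 coding rows were listed at 0. For the 30 of them with an exon length, 3 reads would have given a median of 11.1 FPKM (range 2.93 to 33.9), and for 11 that limit lay below all 3 NP values. All 12 oocyte markers, such as Zp3, Gdf9 and Nlrp5, were above 0 in every library, with summed levels of 5735 to 17661 FPKM. Of 12 granulosa cell markers, 3 to 5 were above 0 in NP and 2 in each P library, with sums of 11.2, 30.5 and 131.0 FPKM in NP and 16.5, 5.86 and 1.54 FPKM in P. Of these markers, Fshr, Amh and Foxl2 were at 0 throughout, and most of the sum was Cyp19a1 and Nr5a2. Cyp19a1 stood at 7.15, 22.5 and 104 FPKM in NP and at 15.4, 0 and 0 FPKM in P. Nr5a2 reached 26.9 FPKM in NP 3. The part of granulosa cell RNA in the ribosomal protein values was not tested. The 6 blood markers in the table were at 0 in all 6 libraries.

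Ribosomal protein RNA was a small part of both fractions and a smaller part of P in each replicate. All 141 rows together took 1.90, 2.37 and 5.29% of the summed FPKM in NP 1 to 3, against 0.841, 1.33 and 2.95% in P 1 to 3. Large subunit rows took 1.07, 1.43 and 3.32% in NP and 0.488, 0.476 and 0.803% in P, so the fractions did not overlap. Small subunit rows took 0.815, 0.921 and 1.94% in NP and 0.353, 0.849 and 2.12% in P, and here they did overlap, since P 3 was the highest of all. The median coding row stood at 35.1, 44.3 and 50.6 FPKM in NP and at 7.25, 9.15 and 17.5 FPKM in P.

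**Figure D1:**
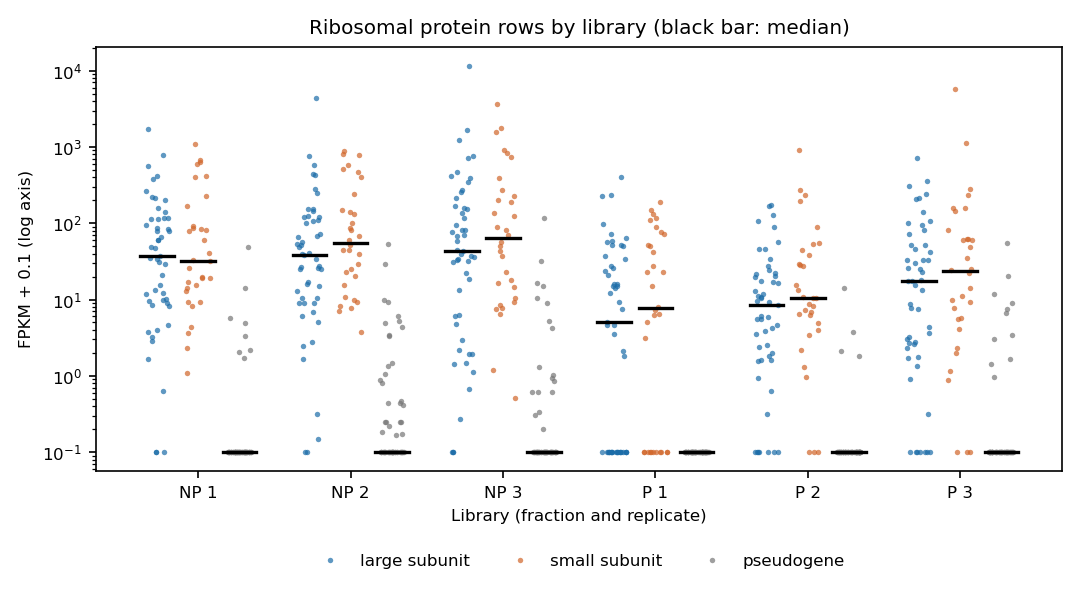
FPKM (plus 0.1, log axis) of every ribosomal protein row in the 6 libraries, with large subunit, small subunit and pseudogene rows side by side and a black bar at each median. Rows at 0 sit on the bottom line, where P 1 has 31 coding rows and all 58 pseudogene rows.

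The FPKM values were far from equal between rows, although most of the proteins enter each ribosome in equal number. The exon length used here to recover depth joins all annotated exons, and exceeds a single transcript by unequal factors. It is 383 bases for Rpl36, like its transcript, and 2394 for Rps14, whose transcript has 597. The order of rows may therefore depend on the length used, which was not tested. Rpl36, a large subunit protein, led in every NP library, with 14.9, 29.0 and 36.1% of all ribosomal protein FPKM. In P the leading row was Rplp1, an acidic P-stalk protein, in replicate 1 (14.2%) and Rps27, a zinc-finger protein of the small subunit, in replicates 2 (27.6%) and 3 (49.0%). At the other end, Rpl9 and Rpl21, whose proteins are core parts of the large subunit, had means of 0.175 and 0.0163 FPKM in NP and were listed at 0 in P. For Rpl9, 93.3% of the 50-base windows of its transcript also occur in transcripts of other genes, Rpl9-ps6 foremost. For Rpl21 the share was 26.2%, spread over 82 other genes. How the authors treated reads with several equal alignments is not given in the sources used here, so these values are levels of the rows, not of the mRNAs.

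Most ribosomal protein rows had lower values in P than in NP. Of the 47 large subunit rows with a mean above 1 FPKM in either fraction, 41 had a log2 ratio of P over NP below 0, with a median of -2.20. Of the 32 small subunit rows, all of which passed that filter, 30 were below 0, with a median of -1.85. These are shares of 87.2 and 93.8%, near the 80.1% of all 10578 genes tested that had a negative ratio. The table as a whole was also lower in P: over all genes tested, the median log2 ratio was -1.03, on the log2(FPKM + 1) scale used throughout, which understates the change of low rows. Relative to that shift, the large subunit median was lower by a log2 difference of -1.17 and the small subunit median by -0.82. Abundant genes were lower as well: of the 5337 tested genes with an NP mean above 10 FPKM, 87.8% had a negative ratio. Their median was -1.49, against -2.43 in the 66 coding rows of that level, of which 92.4% were below 0. Within the replicate pairs, the coding median was -2.22, -2.10 and -1.37, against -1.29, -1.10 and -0.34 over all genes. After rescaling the libraries by median-of-ratios, by quantiles or to a common FPKM sum, the large subunit median was -1.22, -1.19 and -1.28, with 36, 35 and 36 of 47 rows below 0. The small subunit median was -1.21, -0.83 and -1.29, with 23, 23 and 24 of 32 rows below 0. The median of all genes was then -0.43, -0.22 and -0.50.

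In limma with Benjamini-Hochberg adjustment over all genes tested, 11 of the 79 tested coding rows passed an adjusted p of 0.1, all lower in P, 7 of the large and 4 of the small subunit. That is 13.9% of the coding rows, against 1.80% of all genes called lower. In the other direction, 0.0189% of all genes were called higher and no ribosomal protein row was. At an unadjusted p under 0.05 there were 38 coding rows (48.1%), against 15.8% of all genes. All 3 P libraries lay below all 3 NP libraries in 41 coding rows (51.9%), against 23.2% of all genes. No coding row had all P above all NP, near the share of 0.633% of all genes. It could not occur in the 31 coding rows listed at 0 in P 1. With the replicate number as a block, since same-numbered fractions are taken as parts of one gradient, 27 coding rows were lower (34.2%), against 6.27% of all genes. All 190 genes called lower without the block had an NP mean above 10 FPKM. Of all genes at that level, 3.56% were called lower, against 16.7% of the coding rows there. The shares were 26.3 and 56.1% at an unadjusted p under 0.05, and 31.6 and 59.1% without overlap. With the block they were 12.3 and 40.9%. The part of level in these shares was not tested.

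These calls depended on the scale. After the same 3 rescalings, 0, 1 and 1 ribosomal protein rows were called by limma, and 18, 23 and 25 had an unadjusted p under 0.05, against 41 as deposited. The calls rested as well on single libraries. Without NP replicate 1, 2 or 3, 1, 2 and 0 rows were called (32, 31 and 32 at an unadjusted p under 0.05), and without P replicate 1, 2 or 3, 10, 7 and 22, with the filter on low values recomputed. With the filter of all 6 libraries kept, leaving out P replicate 1 or 2 or any NP library gave 0 calls, and leaving out P replicate 3 gave 5.

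**Figure D2:**
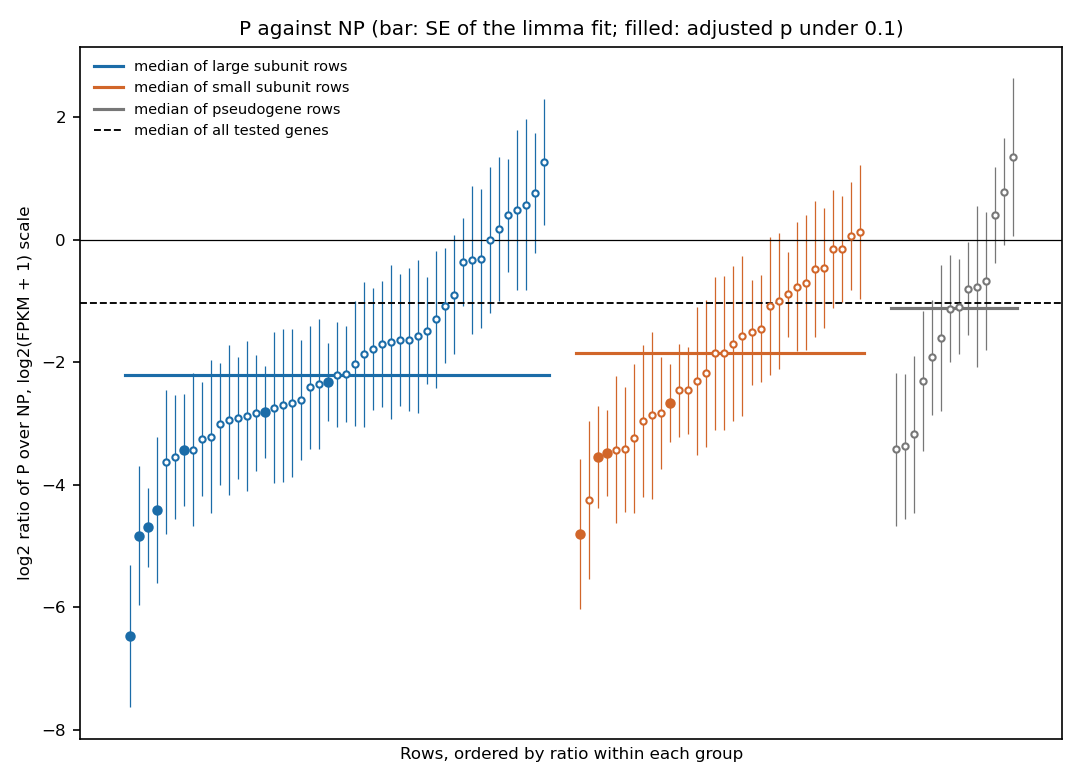
Log2 ratio of P over NP for the 47 large subunit, 32 small subunit and 14 pseudogene rows tested, ordered within each group, with the standard error of the limma fit and filled points for the 11 rows past adjusted p 0.1. Coloured lines mark the group medians at -2.20, -1.85 and -1.11, and the dashed line the median of all genes at -1.03.

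Rpl36 (chr17:56613395-56614243, plus strand) gave the largest drop in level. It stood at 1734, 4344 and 11398 FPKM in NP and at 227, 88.9 and 241 FPKM in P. The lowest NP library was above the highest P library, and NP 3 was the highest of all. The log2 ratio was -4.69 ± 0.64 (SE, n = 3 and 3, adjusted p = 0.000498, limma). Rpl26 (chr11:68901583-68906989, plus strand), which in other cells also binds p53 mRNA, was also called. It stood at 112, 51.6 and 396 FPKM in NP and at 0, 2.43 and 0 FPKM in P, with a log2 ratio of -6.47 ± 1.16 (n = 3 and 3, limma adjusted p = 0.0126). P 2 alone had reads for it, about 4 of them, so the size of the ratio follows the pseudocount, from -8.81 with 0.1 to -4.60 with 5. Rpl15 (chr14:18267823-18271391, minus strand), one of the larger proteins of its subunit, stood at 159, 40.0 and 93.8 FPKM in NP and at 0, 5.85 and 2.96 FPKM in P. Its log2 ratio was -4.83 ± 1.14 (n = 3 and 3, limma adjusted p = 0.0505).

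Rplp0, the P-stalk base to which Rplp1 and Rplp2 attach, also fell. It stood at 558, 425 and 751 FPKM in NP and at 51.5, 45.4 and 213 FPKM in P, a log2 ratio of -2.81 ± 0.75 (n = 3 and 3, limma adjusted p = 0.0746). Its partners did not pass the test. Rplp1 stood at 201, 440 and 1237 FPKM in NP and at 407, 173 and 718 FPKM in P, overlapping and higher in P in replicate 1. Its log2 ratio was -0.37 ± 0.72 (n = 3 and 3, limma adjusted p = 0.803), and it turned positive under each rescaling. Rplp2 stood at 21.1, 16.7 and 68.0 FPKM in NP and at 14.7, 0.846 and 18.1 FPKM in P, with a log2 ratio of -1.87. The difference between the stalk members was not tested.

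The other large subunit rows called were Rpl28, Rpl32 and Rpl27, all of them proteins of the ribosome's core set. Rpl28 stood at 87.3, 154 and 260 FPKM in NP and at 16.1, 10.8 and 13.0 FPKM in P, with little spread in P. Its log2 ratio was -3.43 ± 0.92 (n = 3 and 3, limma adjusted p = 0.0757). Rpl32 stood at 219, 248 and 467 FPKM in NP and at 0, 27.1 and 93.6 FPKM in P, with a log2 ratio of -4.41. Rpl27 stood at 782, 752 and 1651 FPKM in NP and at 235, 108 and 305 FPKM in P, a log2 ratio of -2.32. The P libraries of these 3 rows lay below every NP library.

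The small subunit rows described here, 3 of the 4 called, also had low values in P. Rps14, a protein of the platform of the small subunit, stood at 1100, 796 and 910 FPKM in NP and at 150, 13.3 and 234 FPKM in P, with a log2 ratio of -3.54 ± 0.84 (n = 3 and 3, limma adjusted p = 0.0505). Rps15, at the head of the subunit near the decoding site, stood at 641, 880 and 1775 FPKM in NP and at 116, 232 and 143 FPKM in P, a log2 ratio of -2.66. Rps3a stood at 86.8, 68.3 and 57.4 FPKM in NP and at 0, 15.2 and 0 FPKM in P, a log2 ratio of -4.81. In these 3 rows the fractions did not overlap.

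**Figure D3:**
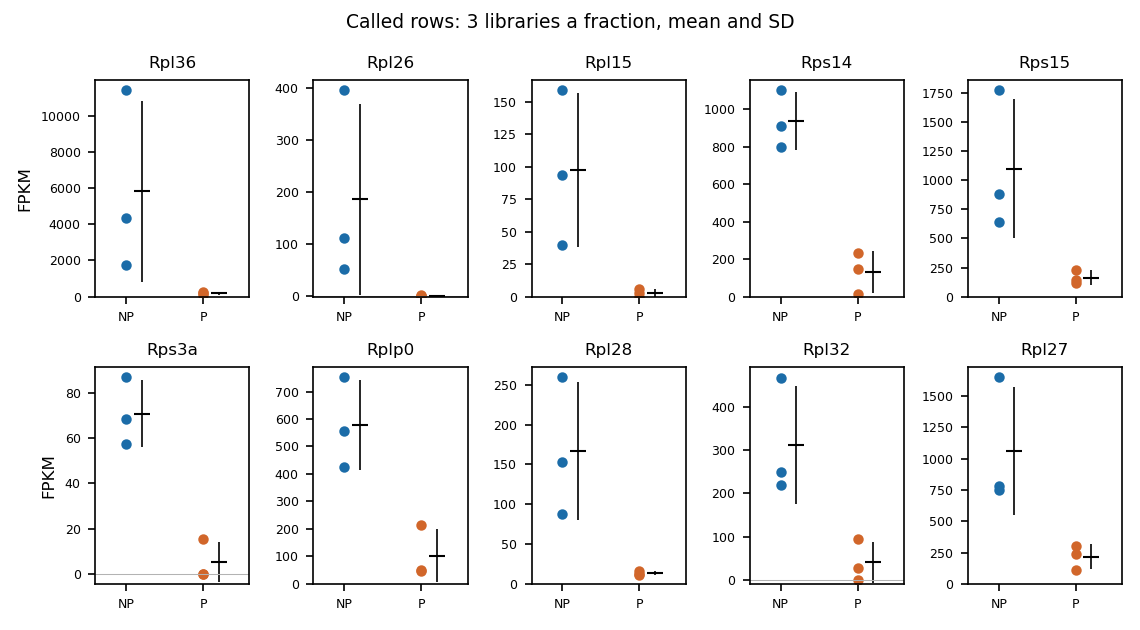
FPKM of 10 of the 11 rows past adjusted p 0.1 in the 3 NP and 3 P libraries (points), with the mean and SD of each fraction. In each of the 10 rows the highest P library is below the lowest NP library, from Rpl36 (1734 against 241 FPKM) to Rpl15 (40.0 against 5.85 FPKM).

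Other abundant small subunit rows had overlapping fractions. Rps27 stood at 402, 582 and 3665 FPKM in NP and at 192, 907 and 5693 FPKM in P, so that replicate 3 was high in both fractions and replicate 1 low in both. Its log2 ratio was 0.07 ± 0.88 (n = 3 and 3, limma adjusted p = 0.975). Nearly all of its transcript's windows, 98.6%, also occur in other genes, Rps27rt foremost. Rps13 stood at 168, 244 and 390 FPKM in NP and at 52.4, 197 and 1126 FPKM in P, with the same order of replicates. Its log2 ratio of -0.15 ± 0.87 turned positive under each rescaling, and its mean was higher in P, at 458 against 267 FPKM. Rps6, the substrate after which S6 kinase is named, stood at 32.6, 20.5 and 7.69 FPKM in NP and at 23.1, 7.18 and 10.99 FPKM in P, with a log2 ratio of -0.47 that turned positive under each rescaling. Rps4x, an X-linked protein, stood at 672, 464 and 202 FPKM in NP and at 131, 270 and 279 FPKM in P. Its log2 ratio of -0.89 also turned positive under each.

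A few further rows stood apart without passing the test. Rps12 stood at 226, 511 and 1559 FPKM in NP and at 76.9, 88.3 and 156 FPKM in P, a log2 ratio of -2.46. Rpsa, also known as the laminin receptor precursor, stood at 78.6, 132 and 228 FPKM in NP and at 23.0, 10.4 and 23.9 FPKM in P, a log2 ratio of -2.83. With the replicate block, the limma adjusted p of Rps12 was 0.0526 and that of Rpsa 0.0843. Rpl4 stood at 262, 580 and 270 FPKM in NP and at 73.0, 170 and 33.1 FPKM in P, a log2 ratio of -2.19. Rpl10a stood at 84.6, 39.1 and 81.6 FPKM in NP and at 23.4, 4.10 and 33.2 FPKM in P, a log2 ratio of -2.02. With the block, the limma adjusted p of Rpl4 was 0.102 and that of Rpl10a 0.239, neither past the threshold. In all 4 rows every P library lay below every NP library.

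Of the 93 tested rows, 1 was higher in P in all 3 replicate pairs, as were 2.09% of all genes. This row, Rpl5, which with Rpl11 and the 5S rRNA forms the particle that binds Mdm2, stood at 10.1, 15.8 and 31.2 FPKM in NP and at 98.1, 17.2 and 45.9 FPKM in P. The fractions overlapped, and the log2 ratio was 1.27 ± 1.03 (n = 3 and 3, limma adjusted p = 0.513). Of its windows, 93.8% are shared with other genes. Rpl10, which joins the large subunit last in its maturation, stood at 34.2, 33.6 and 36.7 FPKM in NP and at 50.5, 20.1 and 208 FPKM in P, even in NP and spread in P. Its log2 ratio was 0.77 and was -0.12 without P replicate 3. Rpl38, needed in mouse embryos for the translation of Hox mRNAs, stood at 8.94, 10.5 and 1.83 FPKM in NP and at 0, 19.4 and 51.2 FPKM in P. Its log2 ratio of 0.57 ± 1.39 turned negative without NP replicate 3 or P replicate 3. Rpl17 stood at 94.9, 122 and 421 FPKM in NP and at 15.8, 128 and 356 FPKM in P, with a log2 ratio of -0.90 that turned positive under each rescaling.

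Replicates with one number tended to be high together. Among the 79 coding rows above 0 in both fractions, the highest NP and the highest P library had the same number in 41 (51.9%), against 39.0% of all tested genes. Replicate 3 was highest in both fractions in 29 of these rows (36.7%), against 6.74% of all tested genes. This is a description of these 6 libraries, in which replicate 3 also has the largest share of ribosomal protein RNA in each fraction.

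Several paralogs are known from other tissues. Rpl39l, best known from male germ cells, was the best represented, at 114, 101 and 136 FPKM in NP and 7.35, 11.6 and 101 FPKM in P. It was above its widely expressed relative Rpl39, at 11.8, 26.9 and 22.1 FPKM in NP and 0, 5.50 and 2.25 FPKM in P, in the 5 libraries other than P 1, where Rpl39l had about 1 read and Rpl39 none. No window of the Rpl39l transcript is shared with another gene. The log2 ratios of P over NP were -2.41 and -2.87, neither past the test. Rps27l, a p53 target in other cells, stood at 18.8, 25.3 and 274 FPKM in NP and at 0, 10.7 and 0.791 FPKM in P, a log2 ratio of -4.25 with a limma adjusted p of 0.127. Rpl7l1 stood at 79.4, 24.9 and 32.1 FPKM in NP and at 37.5, 33.6 and 2.48 FPKM in P, and Rpl7 at 48.4, 38.3 and 1.84 FPKM in NP and 27.3, 9.45 and 17.5 FPKM in P. The Rpl7 log2 ratio was -0.0031 and turned positive under 7 of the other settings. Rpl10l, a testis-expressed copy, stayed between 0 and 3.16 FPKM, with a log2 ratio of 0.40. Rpl22 ranged from 1.505 to 33.6 FPKM with a log2 ratio of 0.49, and Rpl22l1 reached 2.37 FPKM in NP 2. Rpl3l, the striated muscle form, was listed at 0 in all 6 libraries, while Rpl3 stood at 118, 64.9 and 75.8 FPKM in NP and at 4.49, 21.2 and 8.54 FPKM in P, a log2 ratio of -3.00.

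Rps27a, made as a fusion of ubiquitin with a small subunit protein, stood at 13.9, 9.75 and 1.09 FPKM in NP and at 6.19, 0 and 0 FPKM in P, a log2 ratio of -1.85. Ribosomal protein genes whose symbols the rule does not catch include Fau, made as a fusion with a ubiquitin-like protein, and Rpl36al. Their log2 ratios were -1.43 and -2.58, and neither passed the test.

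The start of the transcript was examined for pyrimidine runs in RefSeq windows on GRCm38.p6, which were at hand for 62 of the 83 coding rows. Where a gene had several windows, the one with the longest run was used. A run of at least 8 pyrimidines (C or T) on the transcript strand, within 20 bases before to 20 after the annotated start, was present in 30 of the 62 (48.4%), against 18.4% of all 27025 genes with a window. Such a run may lie before the start and need not begin with C, so it is a looser criterion than the TOP motif. The starts of 5 rows are given as 15 bases before and 15 after the annotated start, with the run in capitals, as examples of such runs in rows called lower (the first pair) and rows not called. The first pair are the only ones with such a run among the 6 called rows that had a window. The longest runs of Rps15, Rplp0 and Rpl27, also called, were 7, 7 and 5 bases.
Rpl28: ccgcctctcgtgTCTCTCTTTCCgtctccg
Rpl15: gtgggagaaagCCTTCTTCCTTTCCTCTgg
Rps27: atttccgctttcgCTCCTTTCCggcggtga
Rpl38: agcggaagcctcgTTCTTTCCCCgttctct
Rps6: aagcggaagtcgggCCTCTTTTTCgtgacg
They lie at chr7:4792950-4792979 (plus strand), chr14:18270972-18271001 (minus), chr3:90213634-90213663 (minus), chr11:114668565-114668594 (plus) and chr4:86857353-86857382 (minus). The median log2 ratio was -2.20 in the 29 tested coding rows with a run and -1.67 in the 30 without. In the large subunit the medians were -2.47 and -1.74 and in the small subunit -1.45 and -1.54. These differences were not tested. Over all tested genes it was -1.01 with a run and -1.03 without. The annotated start may lie some bases from the start used in oocytes, so a missing run says only that the letters are not in this window.

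Other mRNAs of the translation machinery lay near the median of all genes. Of 20 tested genes from a list of further TOP mRNAs, mainly elongation and initiation factors, 13 (65%) had a ratio below 0 and 7 above, around a median of -1.06, against 80.1% below 0 and a median of -1.03 over all genes. The 1 gene called (5%, against 1.80% of all genes) was Eif3f, a subunit of initiation factor eIF3, named here after its values were seen, with a log2 ratio of -6.10 (limma adjusted p = 0.0138). Eef1a1, the elongation factor that brings tRNA to the ribosome, stood at 1107, 1146 and 1038 FPKM in NP and at 465, 692 and 466 FPKM in P. Eef2, the translocation factor, stood at 1938, 2250 and 1972 FPKM in NP and at 550, 405 and 954 FPKM in P. Both were lower in every P library. Of 25 tested ribosome assembly factors, 19 (76%) had a ratio below 0 and 6 above, around a median of -0.86. The 1 called (4%), also named after its values were seen, was Eif6, which keeps the large subunit from joining too early, with a log2 ratio of -2.10 (limma adjusted p = 0.0624). Short exons moved with the ratio as well: among the 941 other genes with under 1500 bases of exon the median was -1.31, and among the 26 coding rows of that length -2.67, against -1.85 in the 52 longer coding rows tested. The part of length in the result was not tested.

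The pseudogene rows were mostly empty. Of 58, 30 were listed at 0 in all 6 libraries, 17 had reads in NP only, and none had any in P 1. NP 1 to 3 had 8, 27 and 18 above 0, and P 2 and P 3 had 4 and 11. Their number followed the depth of the libraries within NP, and 9 were seen in NP 2 alone. Only 14 passed the filter, none was called by limma without the block, and 3 (21.4%) passed an unadjusted p of 0.05, near the 15.8% of all genes. With the block 2 were lower (14.3%, against 6.27% of all genes), Rpl36-ps3 and Rpl27-ps3 (limma adjusted p = 0.0810 and 0.0749).

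Pseudogenes more like the parent more often had a level. Of the 56 that could be aligned to the parent transcript, 10 were at least 99% identical, and 8 of these were above 0 in some library, with a median highest level of 6.03 FPKM. Of 17 between 97 and 99%, 12 were above 0, with a median of 0.15 FPKM. Of 29 below 97%, 7 were above 0, with a median of 0. Exceptions ran both ways. Rpl9-ps6 and Rps27a-ps2 (99.9 and 99.8% identical) were listed at 0, and Rpl9 itself was near 0. Rps15a-ps1, at 94.7% and with the many differences printed above, was listed at 3.28 FPKM in P 3, on 2 recovered reads. Rpl7a-ps8, at 94.8%, was listed at 9.31 FPKM in NP 2, on 135 recovered reads.

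The largest pseudogene row was Rpl27-ps3 (chr18:6332590-6333064, plus strand), which is 100% identical to Rpl27 over the aligned bases. It stood at 49.3, 52.6 and 117.0 FPKM in NP and at 0, 3.69 and 54.4 FPKM in P. That is 6.31, 6.997 and 7.09% of the Rpl27 level in NP, a near constant share, and 3.40 and 17.8% in P 2 and P 3. Rpl36-ps3 kept a share between 0.121 and 0.283% of Rpl36 in NP, at 2.10, 9.79 and 32.2 FPKM, in the same order as the parent, and was listed at 0 in all P libraries. Rps13-ps1 stood at 3.21, 5.92 and 8.83 FPKM in NP and at 0, 1.74 and 20.5 FPKM in P. Its share of Rps13 was 1.91, 2.43 and 2.26% in NP and 0.881 and 1.82% in P 2 and P 3, and both rows were highest in P 3. Rpl23a-ps3, with its 1 mismatch, stood at 14.1, 28.7 and 15.1 FPKM in NP and at 0, 0 and 8.79 FPKM in P, between 29.6 and 42.1% of Rpl23a in the 4 libraries where it was above 0.

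In 3 further pairs among the 14 tested the copy was listed near or above the parent in a P library, on few reads. Rps19-ps4 stood at 0, 1.26 and 4.14 FPKM in NP and at 0, 14.0 and 11.8 FPKM in P, which was 170% of Rps19 in P 2 and 24.0% in P 3. The P 2 value rests on 6.99 recovered reads, against 43.9 of Rps19. Its log2 ratio was 1.35 and that of Rps19 was -0.70. Rpl31-ps8, with 100% identity, was at 9.20, 4.38 and 1.69% of Rpl31 in NP and at 115% in P 3, where it had 1.74 reads and Rpl31 had 6.64, so the order there cannot be read. Rpl30-ps8 was at 99.2% of Rpl30 in P 3 and at most at 3.94% in NP, with log2 ratios of 0.79 and -1.58. Its P 3 value rests on 3.97 reads, against 35 of Rpl30. Among the pairs below the filter, Rpl21-ps10 and Rpl21-ps6 were above Rpl21 in NP 2, at 1.37 and 0.118 FPKM against 0.0488, where Rpl21 had 3 reads. Rpl21-ps10 was also above 0 in NP 3 and P 3, where Rpl21 was listed at 0, with about 3 reads and 1 read. The remaining copies named stayed below their parents. Rps10-ps1, whose NP libraries came in the order of the parent, stood at 25.9, 16.5 and 11.7% of Rps10 in NP and at 10.9% in P 3. Rpl27-ps1, Rps12-ps3 and Rps26-ps1 were at 0 to 2.42% of their parents in every library where the parent was above 0, and Rpl7a-ps8 was above 0 in NP 2 alone.

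Over the 14 pairs tested, parent and pseudogene had the same sign of the log2 ratio in 11, all of them negative for both. The 13 parents of these pairs all had a log2 ratio below 0, although some, those of Rps13 and Rps19 among them, turned positive under each rescaling, and 80.1% of all tested genes had a negative ratio, so a shared sign is near the background. The highest NP library was the same for both in 10 of the 14, and the order of all 3 NP libraries in 5. Those 5 include Rps15a-ps1, at 0, 0 and 0.839 FPKM in NP, where the tie at 0 leaves no full order to match. Of the 9 pairs whose pseudogene had any level in P, the highest P library was the same in 7. Some parents and copies share up to 100% of their 50-base windows, so for these pairs reads of the copy and reads of the parent cannot be told apart in this table.

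**Figure D4:**
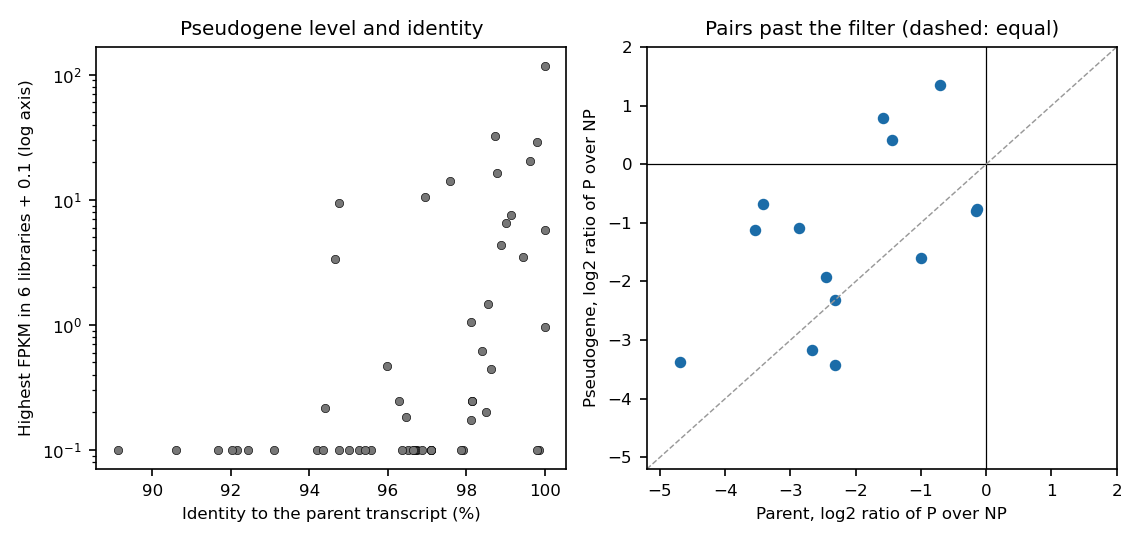
Left, the highest FPKM of each of 56 pseudogene rows in the 6 libraries (plus 0.1, log axis) against its identity to the parent transcript in percent. Right, the log2 ratio of P over NP of the 14 pseudogenes past the filter against that of their parents, where 11 points lie below 0 on both axes and 3 are above 0 for the pseudogene alone.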

How the data were processed

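RNA of NP and P gradient fractions was depleted of rRNA, amplified as whole transcriptomes with random and oligo-dT priming, and sequenced from 3 libraries a fraction. Per the labels and the methods, adapters were removed by Trim Galore 0.4.1 before HISAT2 2.0.5 placed the reads on GRCm38, and the authors deposited their FPKM values for each gene. The treatment of reads with several alignments is not given in the sources used here. Read depth was recovered from the steps in low values, of which 58.0 to 65.3% came out whole within 0.02 reads, so no count test was run.

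Of 66 duplicated rows none was a ribosomal protein row, and the row with the highest mean was kept. P was compared with NP by limma 3.58.1 (R 4.3.3, trend, two-sided) on log2(FPKM + 1) for all genes with a mean above 1 FPKM in either fraction, with an adjusted p of 0.1 as the threshold. An exact permutation test of 1 row, 3 against 3, cannot go below p = 0.1. On simulated data with a noise SD of 0.3 (log2), 179 of 200 changed genes among 10578 were called, with 15 false calls. At the noise of the real libraries, 3 of 200 were called. Nothing says that the replicates came from separate animals, so p-values measure the spread between these libraries.

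Each sample's fractions were pooled into NP and P, so equal numbers are read as one gradient, although no source used here states it per library. Deviations from the fraction means correlated at 0.063, 0.099 and 0.116 for equal numbers and at -0.089 to 0.021 for others. Transcripts of GENCODE M21 (GRCm38) gave exon lengths, 50-base windows shared with other genes, and identity to parents (BLAST 2.17.0). Lists were further TOP mRNAs, ribosome assembly factors, oocyte, granulosa and blood markers, and ribosomal protein genes outside the symbol rule. Named rows are the 8 most abundant of each subunit, up to 10 called rows, those moving one way in all pairs, 10 pseudogenes with parents, the paralogs and 8 well-studied members. Rows singled out beyond these were chosen after their values were seen. Some members are not reported here by name. The members and lists were chosen with earlier results of these data known.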

Additional observations from a re-analysis of the deposited data

How the results depend on the processing

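The calls depended on the settings, while both subunit medians stayed negative under every setting run. Against 11 called rows, all lower in P, there were 11 with a pseudocount of 5 and 12 with a mean above 5 FPKM, and 13 with a mean above 1 FPKM over all 6 libraries (chosen after seeing the data). There were 4 with a pseudocount of 0.1, 0 without a filter (38 at an unadjusted p under 0.05), 1 without the trend, 0 by median-of-ratios, 1 by quantiles, 1 at a common FPKM sum and 3 at an adjusted p of 0.05. The replicate block, which pairs equal numbers, gave 29 and kept all 11. Leaving out a library gave 0 to 22 with the filter recomputed. With the filter of all 6 libraries kept, chosen after seeing the data, it gave 0 without NP replicate 1, 2 or 3 or P replicate 1 or 2, and 5 without P replicate 3, with 26 to 46 at an unadjusted p under 0.05. With 1 library left out, a lost call may also come from having fewer samples, and the cause of the other changes was not tested.

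The large subunit median of -2.20 was -2.74 with a pseudocount of 0.1, -1.62 with 5, -1.22 by median-of-ratios, -1.19 by quantiles and -1.28 at a common sum, and -2.07 to -2.62 without a library. The small subunit median of -1.85 was -2.67, -1.23, -1.21, -0.83 and -1.29 in the same order, and -1.58 to -2.28 without a library. The pseudogene median of -1.11 was -2.56 with a pseudocount of 0.1, -2.74 over the 6 rows with a mean above 5 FPKM, -0.43 with a pseudocount of 5, -0.88 by median-of-ratios, -0.60 by quantiles, -0.96 at a common sum and 0 without a filter, and -1.11 to -1.96 without a library (-0.65 to -1.63 with the filter of all 6 libraries kept). By median-of-ratios, 36 of 47 large and 23 of 32 small subunit rows were below 0. The median of all genes moved from -1.03 to -0.43, -0.22 and -0.50 under the rescalings.

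Some named rows changed sign. By median-of-ratios, quantiles and a common sum, the log2 ratio was 0.094, 0.16 and 0.026 for Rpl17, 0.63, 0.60 and 0.56 for Rplp1, 0.85, 0.85 and 0.78 for Rps13, 0.24, 0.31 and 0.17 for Rps19, 0.11, 0.11 and 0.042 for Rps4x, 0.47, 0.49 and 0.40 for Rps6, and 0.96, 0.80 and 0.85 for Rpl7. By the first pair of these it was 0.068 and 0.34 for Rpl31-ps8 and 0.0093 and 0.17 for Rps13-ps1, and by quantiles 0.019 for Rpl7l1. With a pseudocount of 0.1 it was 0.12 for Rpl7 and -0.29 for Rpl38. Leaving out a library turned the sign of Rpl10 (-0.12 to 1.53), Rpl17 (-1.88 to 0.33), Rpl22 (-0.68 to 1.21), Rpl38 (-0.60 to 2.25), Rpl7 (-1.32 to 0.74), Rplp1 (-0.99 to 0.32), Rps13 (-1.30 to 0.90), Rps13-ps1 (-1.99 to 0.22) and Rps27 (-1.19 to 1.26). The depth of P 1 limits every ratio: a coding row at 0 there had room for several FPKM.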
